A study of Mus musculus with 5 samples.

Results

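The regions described here are peaks of H3K36me3, a methyl mark on histone H3, that lie in the longest protein-coding genes of the mouse. A peak was taken when at least 1 bp of it touched a protein-coding RefSeq gene of 500 kb or longer on chromosomes 1 to 19, X or Y (mm10). There were 227 such genes among 21887, with a median length of 734 kb and a maximum of 2390 kb in Dmd, and their merged spans cover 190.6 Mb. They held 399 of the 7231 peaks of series 1 (5.52%, exact binomial 95% interval 5.00 to 6.07%) and 581 of the 10243 peaks of series 2 (5.67%, 5.23 to 6.14%), 980 peaks in all. The cells were mTEClo, the medullary thymic epithelial cells with low CD80, sorted as EpCAM+ UEA-1+ Ly51lo CD80lo from the thymus of individual wild-type B6 mice whose age is not given in the labels. All 5 samples share this strain, genotype and cell type: there were 2 ChIP libraries with an antibody to H3K36me3, called series 1 and series 2, and 3 input libraries without antibody, 2 of series 1 and 1 of series 2. The input libraries served the authors as the background of the peak calls and are not analysed here by themselves.

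H3K36me3 is laid down by SETD2, which travels with elongating RNA polymerase II, so the mark builds up over the bodies of transcribed genes and usually more towards their ends. The longest mammalian genes have vast introns and encode mainly neuronal adhesion molecules, receptors, ion channels and scaffolds, together with a smaller number of widely expressed genes of cell polarity, vesicle traffic and gene regulation. Several of them span common fragile sites, where replication and transcription of a very long unit are known to break chromosomes.

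Each library is 1 list of broad peaks, so no test between groups is possible, and the intervals given on counts and shares cover counting error of peaks or genes only. The lists hold no read counts, and the depth behind a peak is unknown. Lack of a peak therefore means only that none was called. The series differed in the shape of their peaks: 65.6% of all series 2 peaks were at most 9 bp wider than the narrowest peak of that list (216 bp), against 3.68% in series 1, whose narrowest peak was 221 bp. As background to the markers, series 1 hit 16.3% of all coding genes and series 2 hit 19.5%. Of 8 marker genes of mTEClo, Krt5, a keratin of basal epithelium, had a peak in both series, Trp63 and Itgb4 in series 1, Relb in series 2, and Epcam, Krt14, Ccl21a and Cd40 in neither. Of 4 markers of mature medullary cells, Ciita had a peak in both series and Cd80 in series 2, and of 4 cortical markers Ly75 had one in both. None of 8 thymocyte markers, among them Ptprc and Cd3e, had a peak in either series. Of 6 neuronal markers, Syt1 (2 peaks) and Map2 (1 peak) had one in series 1, and none had one in series 2. With at most 8 genes per list, these counts are a weak check of the cell type.

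Few promoter windows of the very long genes were reached by a peak. RefSeq gives 290 windows, each from 250 bases before to 50 after a start, for 179 of the 227 genes (GRCm38.p6, the assembly of mm10). A peak reached 2 of the 290 windows in series 1 (0.690%, exact binomial 95% interval 0.0836 to 2.47%) and 0 of 290 in series 2. A count of 0 allows a share of up to 1.03% by a limit of 3 windows of 290, and the upper bound of its exact binomial interval is 1.26%. Among 20973 windows of shorter coding genes the counts were 9 (0.0429%) and 14 (0.0668%). Both windows reached in series 1 are given here, 5′ to 3′ on the strand of the gene, because they are the windows of very long genes that a peak reached, and capitals show the bases under the peak. That of Skint5 (chr4:113999454-113999753, minus strand), from a family of butyrophilin-like proteins of thymic and skin epithelium, has 100 bases under a peak of 325 bp with a score of 18. That of Tenm3 (chr8:48674641-48674940, minus strand), a teneurin of neuronal adhesion, is a start inside the gene, and 16 of its bases lie under a peak of 454 bp with a score of 13. The score is the whole number that the authors' peak caller gave each peak, with a minimum of 10 in both lists. In RefSeq the windows read as follows.
Skint5: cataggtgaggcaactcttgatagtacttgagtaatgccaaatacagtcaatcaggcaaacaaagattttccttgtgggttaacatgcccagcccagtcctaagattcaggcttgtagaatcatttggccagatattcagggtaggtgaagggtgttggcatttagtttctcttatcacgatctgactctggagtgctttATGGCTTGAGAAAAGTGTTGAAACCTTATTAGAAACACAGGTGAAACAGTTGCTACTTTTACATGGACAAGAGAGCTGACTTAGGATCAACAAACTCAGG
Tenm3: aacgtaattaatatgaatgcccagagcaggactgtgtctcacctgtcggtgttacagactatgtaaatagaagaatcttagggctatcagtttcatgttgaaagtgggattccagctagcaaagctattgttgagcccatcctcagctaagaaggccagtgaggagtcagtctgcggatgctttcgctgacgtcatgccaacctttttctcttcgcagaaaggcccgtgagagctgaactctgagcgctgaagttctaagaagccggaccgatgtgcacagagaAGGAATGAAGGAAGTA
The marked bases in the Skint5 window run across the start of the gene, and those in the Tenm3 window are the last of the window, downstream of that start.

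Peaks were sparse in very long genes. Per 100 kb of span there were 0.209 peaks in series 1 (exact Poisson 95% interval 0.189 to 0.231) and 0.305 in series 2 (0.281 to 0.331) in very long genes, against 0.564 (0.548 to 0.580) and 0.691 (0.673 to 0.709) in all shorter coding genes. The ratio was 0.371 in series 1 and 0.441 in series 2, with a mean of 0.406 ± 0.0496 (SD, n = 2), and the intervals of the very long and the shorter genes did not overlap in either series. In the classes of 250 to 500, 100 to 250, 50 to 100 and under 50 kb, the density of series 1 was 0.249, 0.470, 0.671 and 0.796 peaks per 100 kb, and that of series 2 was 0.430, 0.602, 0.794 and 0.888. The very long genes thus had the lowest density of the 5 length classes in both series, although in series 1 their interval overlapped that of the class next to them (0.226 to 0.274).

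Very long genes nevertheless carried more peaks than sequence outside coding genes. Outside all coding genes there were 0.125 peaks per 100 kb in series 1 (0.120 to 0.131) and 0.232 in series 2 (0.225 to 0.239), so the density of very long genes was 1.67 and 1.32 times as high, a mean of 1.49 ± 0.251 (SD, n = 2). Measured as bases under peaks, 0.121% and 0.0868% of the very long spans were covered in series 1 and 2, against 0.360% and 0.256% of shorter coding genes and 0.0699% and 0.0638% of sequence outside coding genes. The coverage ratio of very long to shorter genes was 0.337 in series 1 and 0.339 in series 2, which differ by less than 0.01.

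**Figure D1:**
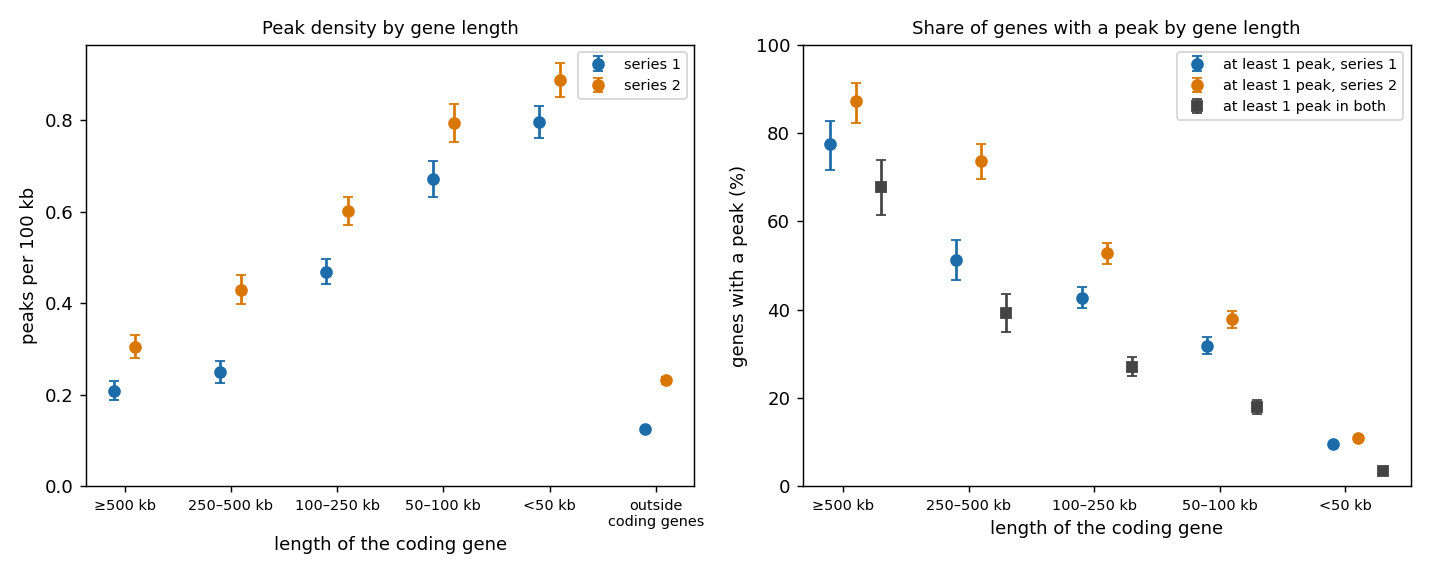
Left, peaks per 100 kb of merged gene span (y axis) by length of the coding gene (x axis) and outside coding genes, with exact Poisson 95% intervals; right, percent of genes with at least 1 peak, with exact binomial 95% intervals. Blue is series 1, orange series 2 and grey squares both series: from 500 kb downwards the density goes up in each class while the share of genes with a peak goes down, from 77.5% and 87.2% in very long genes.

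Most very long genes held a peak in each series. At least 1 peak was found in 176 of 227 very long genes in series 1 (77.5%, exact binomial 95% interval 71.5 to 82.8%), where the share over all coding genes was 16.3%, and in 198 in series 2 (87.2%, 82.2 to 91.3%), where it was 19.5%. In both series there were 154 (67.8%, 61.3 to 73.9%), against 8.42% of all coding genes and 39.2% (34.9 to 43.6%) of the 495 genes of 250 to 500 kb. A further 22 genes had a peak in series 1 alone, 44 in series 2 alone and 7 in neither. The genes hit in both were 87.5% of those hit in series 1 and 77.8% of those hit in series 2. The shares of genes hit are not corrected for gene length, and they went up with each length class. For series 1 the share was 9.51% of genes under 50 kb and 51.3% of those of 250 to 500 kb. For series 2 it was 10.9% and 73.7%. Whether the excess of very long genes over all coding genes goes beyond their length was not tested. Series 2 peaks were about as frequent in very long genes with and without a series 1 peak: of the 51 without one, 86.3% had a peak in series 2. Among the genes of 250 to 500 kb these shares were 76.4% of the genes hit in series 1 and 71.0% of the others. Among those of 100 to 250 kb they were 63.6% and 44.6%.

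The recurrence was of genes and rarely of places. Only 6 of the 399 series 1 peaks in very long genes (1.504%, exact binomial 95% interval 0.554 to 3.24%) overlapped one of series 2, and 6 of the 581 series 2 peaks (1.03%, 0.380 to 2.23%) overlapped one of series 1. Among peaks in shorter coding genes these shares were 7.03% (6.32 to 7.79%) and 5.74% (5.16 to 6.37%), and among peaks outside coding genes 0.962% (0.588 to 1.48%) and 0.546% (0.338 to 0.833%). The intervals of very long genes overlapped those of sequence outside coding genes and lay below those of shorter genes. In the 154 genes hit in both, the closest pair of peaks from different series lay a median of 44.1 kb apart (interquartile range 15.6 to 109 kb), and in 27 genes it lay within 10 kb.

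The 6 places where the series met are in 6 genes. In Atrnl1, which encodes an attractin-like membrane protein, a series 1 peak of 494 bp with a score of 41 contains a series 2 peak of 361 bp with a score of 20 (chromosome 19, 57936711 to 57937071). In Syne1, which encodes the nuclear envelope protein nesprin-1, a series 2 peak of 226 bp (score 21) lies within a series 1 peak of 336 bp (score 20). In Nav2, a neuron navigator that acts on the cytoskeleton, peaks of 924 bp in series 1 (score 14) and 620 bp in series 2 (score 21) share 609 bp. The other pairs share 171 bp in Nfia, a nuclear factor I transcription factor, 177 bp in Cntn4, a contactin of axonal adhesion, and 110 bp in Rbms3, an RNA-binding protein. The Nfia pair had scores of 79 and 22, the Cntn4 pair 18 and 14, and the Rbms3 pair 13 and 17. All 6 host genes had at least 2 peaks in each series.

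In width the peaks of very long genes resembled peaks outside genes more than those of shorter genes. The median width in series 1 was 461 bp (interquartile range 343 to 818 bp) in very long genes, 530 bp (338 to 882 bp) in shorter coding genes and 413 bp (315 to 769 bp) outside coding genes. In series 2 it was 221 bp (218 to 226 bp), against 223 bp (219 to 383 bp) in shorter coding genes and 221 bp (218 to 225 bp) outside. Of the series 2 peaks in very long genes, 73.1% were of the narrowest kind, at most 9 bp above the minimum, against 57.5% in shorter genes and 76.7% outside genes. Peaks over 1 kb made up 12.3% (49 peaks) and 2.75% (16 peaks) of series 1 and 2 in very long genes, 17.1% and 5.71% in shorter genes, and 10.9% and 1.77% outside genes.

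Scores in very long genes were somewhat lower than elsewhere in series 1 and similar in series 2. The median score was 19 in series 1 (interquartile range 16 to 26) and 16 in series 2 (12 to 21) in very long genes, against 21 and 16 in all other peaks. A score of at least 20 was reached by 49.4% (exact binomial 95% interval 44.4 to 54.4%) of series 1 peaks in very long genes and by 58.5% (57.1 to 59.9%) in shorter genes, intervals that did not overlap, and by 50.8% (48.6 to 53.0%) outside coding genes. In series 2 the shares were 37.7% (33.7 to 41.8%) and 36.4% (35.2 to 37.7%), with overlapping intervals. A score of at least 50 was reached by 25 (6.27%) and 20 (3.44%) peaks of very long genes in series 1 and 2, against 6.26% and 2.42% of all other peaks. One of at least 100 was reached by 2 (0.501%) and 3 (0.516%), against 0.761% and 0.269%.

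The very long genes differed among themselves. The median gene had 1 peak in series 1 (interquartile range 1 to 2.5, maximum 8) and 2 in series 2 (1 to 4, maximum 9), which is 0.180 and 0.290 peaks per 100 kb. Longer members held more peaks, with a Spearman correlation between peak number and length of 0.280 in series 1 and 0.312 in series 2, but not more per 100 kb (-0.0268 and -0.150). Across the 227 genes the density of series 1 and that of series 2 had a Spearman correlation of 0.142 and a Pearson correlation of 0.329. These correlations describe genes of 2 lists that share the genome and the annotation, and genes are not replicates. At or above the pooled density of shorter coding genes were 15 very long genes in series 1 and 19 in series 2, and 7 in both. At or below the density outside coding genes were 76 and 86, and 31 in both.

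The 7 genes that reached the density of shorter genes in both series were Atrnl1, Dock1, Kalrn, Nav2, Esrrg, Nbea and Syne1. The density of a single gene rests on few peaks and is given without an interval. Syne1, with 3 peaks in series 1, had 0.566 per 100 kb there, against 0.564 in shorter genes. Atrnl1 (chromosome 19, 57610960 to 58133343) had 8 peaks in series 1 and 6 in series 2, or 1.53 and 1.15 per 100 kb, 1.34 ± 0.271 (SD, n = 2), the highest mean among the very long genes. Its series 1 peaks covered 1.53% of the span, and 3 of them were over 1 kb wide. Dock1 (chromosome 7, 134670687 to 135173647), an exchange factor that activates the GTPase Rac in cell migration and engulfment, had 3 and 7 peaks, or 0.596 and 1.39 per 100 kb. Kalrn (chromosome 16, 33969073 to 34573277), a kinase with exchange factor activity for small GTPases, had 7 and 5, or 1.16 and 0.828 per 100 kb. Both genes were above the pooled density of shorter genes in each series, Dock1 in series 1 narrowly and with 3 peaks (0.596 against 0.564). The 2 series differed more for Dock1 (SD 0.562) than for Kalrn (SD 0.234). Nav2 had 4 and 6 peaks, Esrrg, an orphan nuclear receptor, 4 and 5, Nbea, a BEACH protein of membrane traffic, 4 and 4, and Syne1 3 and 4. All 7 are under 700 kb, although across the 227 genes the Spearman correlation of density with length was only -0.0268 in series 1 and -0.150 in series 2.

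**Figure D2:**
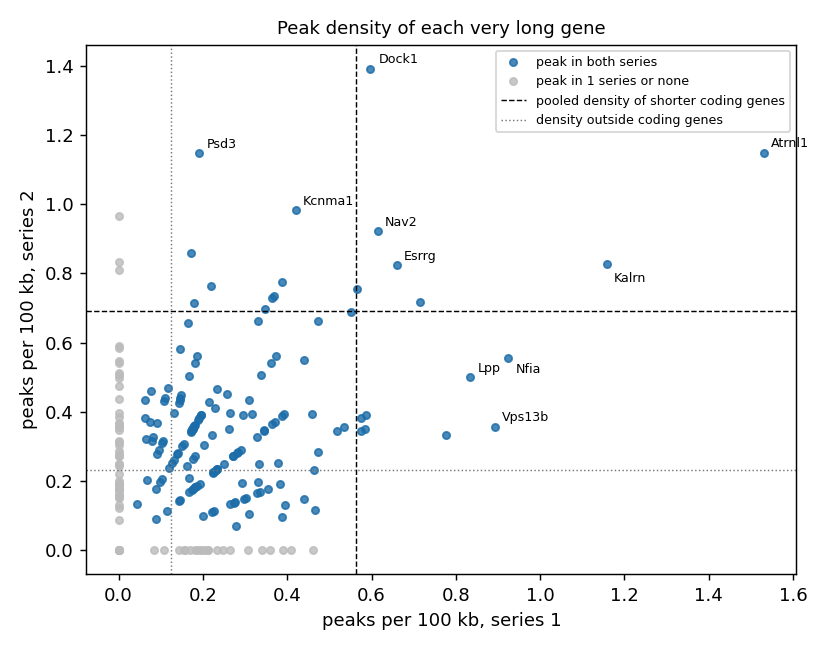
Peaks per 100 kb in series 2 (y axis) against series 1 (x axis), 1 point for each of 227 very long genes, blue where both series have a peak and grey otherwise. Dashed lines mark the pooled density of shorter coding genes (0.564 and 0.691) and dotted lines that outside coding genes (0.125 and 0.232): 7 points lie in the upper right corner, with Atrnl1 farthest out.

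By number of peaks, Atrnl1 (8 and 6) and Kalrn (7 and 5) stood among the leaders beside much longer genes. Ptprd, a receptor tyrosine phosphatase of synaptic adhesion with a span of 2271 kb, had 6 peaks in series 1 and 9 in series 2, and Lsamp, an immunoglobulin adhesion molecule of 2197 kb, had 5 and 9. Rbfox1, a splicing regulator, had 7 and 6, Fhit, a hydrolase at a fragile site, 5 and 7, Rbms3 5 and 7, and Robo2, a receptor for Slit proteins, 4 and 7. Per 100 kb these 6 longer genes had means between 0.319 in Lsamp and 0.568 in Rbms3, below the shorter coding genes, whereas Atrnl1 (1.34) and Kalrn (0.993) were above them. At least 4 peaks in each series were found in 18 very long genes, at least 3 in 40 and at least 2 in 78. Shorter genes were not counted in this way. Length did not ensure a high density. Dmd, the dystrophin gene and the longest of all, had 4 and 5 peaks, against a median of 1 and 2 per gene. Per 100 kb it had 0.167 and 0.209. Cntnap2, a neurexin-family adhesion gene of 2241 kb, had 1 and 3 peaks (0.0446 and 0.134 per 100 kb).

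**Figure D3:**
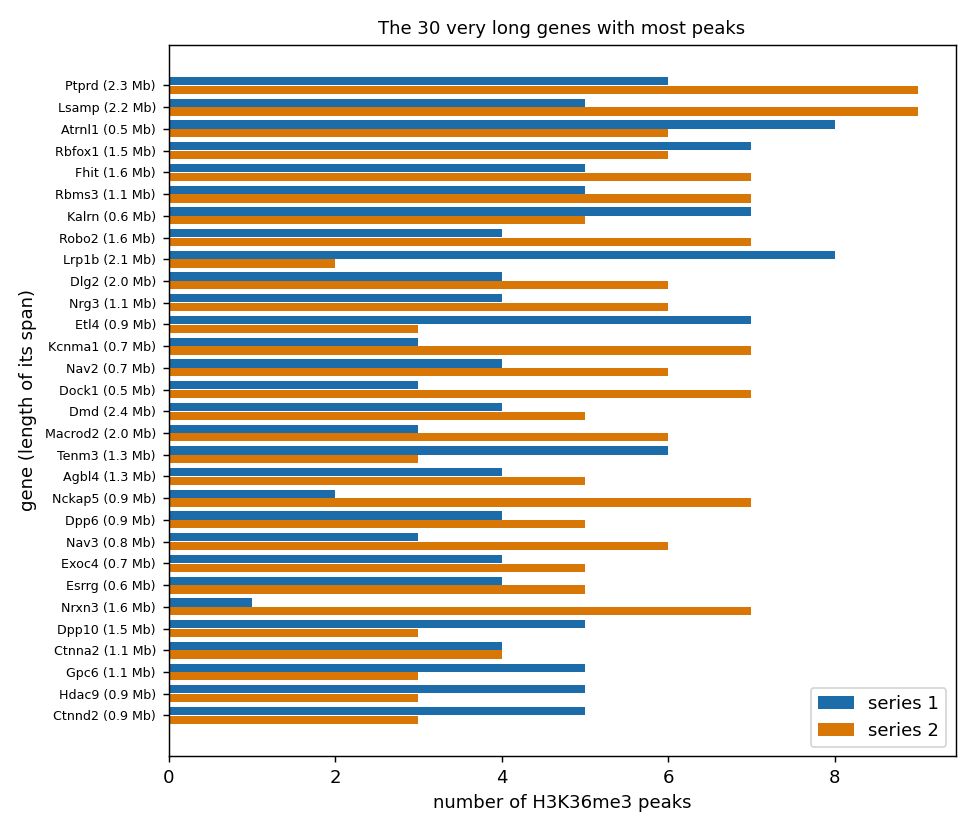
Number of peaks (x axis) in the 30 very long genes with most peaks over both series (y axis, length of the span in brackets), blue bars for series 1 and orange for series 2. Counts run from 1 to 9 per series, and Nrxn3 (1 and 7) and Lrp1b (8 and 2) are the most uneven between the series.

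Some genes were hit mainly in one series. Series 2 had more peaks in 130 very long genes and series 1 in 59, with equal counts in 38, in lists of 581 and 399 peaks. Nrxn3, a presynaptic neurexin, had 1 peak in series 1 and 7 in series 2, and Tenm4, a teneurin, had 0 and 6. Lrp1b, a large receptor of the LDL receptor family, had 8 and 2, and Etl4, the Sickle tail gene known from the mouse intervertebral disc, had 7 and 3. With 1 library per series, whether such differences exceed the spread between libraries cannot be tested.

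The very long genes were also described by role, in 14 lists that share some genes, and 54 genes were in no list. In all 227, 67.8% had a peak in both series and the pooled density was 0.257 ± 0.0675 peaks per 100 kb (SD, n = 2). Vesicle traffic and cytoskeleton genes had a pooled density of 0.333 in series 1 and 0.522 in series 2, and 12 of 15 were hit in both. Theirs was the highest density of the lists in series 2, and that of RNA-binding proteins in series 1. The vesicle traffic genes also had the shortest median length of the lists, 560 kb, and all genes of 500 to 750 kb had 0.236 and 0.364. The vesicle traffic genes include Dock1 and Nbea, Exoc4, a subunit of the exocyst, with 4 and 5 peaks, and Vps13b, a lipid transfer protein of the Golgi, with 5 and 2. Elmo1, the partner of Dock1 in Rac activation, had 0 and 5. RNA-binding proteins had 0.352 and 0.463 peaks per 100 kb, with all 5 hit in both: beside Rbfox1 and Rbms3 these were Celf2, an RNA processing factor, with 2 and 4, Adarb2 with 1 and 2, and Khdrbs2 with 1 and 2.

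All 12 genes listed under cell polarity and epithelial junctions were hit in both series, with 0.282 and 0.360 peaks per 100 kb. The list is not only epithelial, since it holds Ctnna2. Lpp, a LIM protein of cell adhesion sites, had 5 and 3 peaks over 599 kb, Ctnnd2, a delta-catenin, 5 and 3, and Ctnna2, an alpha-catenin of neurons, 4 and 4. Pard3, a scaffold of the apical polarity complex, had 2 and 4, Ptprk, a phosphatase of cell contacts, 3 and 2, and Magi1, a scaffold of tight junctions, 1 and 4. The median length of these genes was 688 kb, near the 734 kb of the whole class. Transcription factors and chromatin genes had 0.264 and 0.299 peaks per 100 kb, with 10 of 16 hit in both. Esrrg led with 4 and 5, followed by Hdac9, a histone deacetylase, and Nfia with 5 and 3 each, and Auts2 with 3 and 3, while Rora, a nuclear receptor, had 0 and 2. The list of kinases, phosphatases and phosphodiesterases also holds other signalling genes such as Nrg1, Fgf14 and Rgs6, and leaves out receptor phosphatases such as Ptprd. It had 0.1997 and 0.391 peaks per 100 kb and 12 of 15 genes hit in both. Among them were Kalrn, the cyclic GMP-dependent kinase gene Prkg1 with 4 and 3, Mast4 with 2 and 4, and the phosphodiesterase gene Pde4d with 1 and 6.

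Neuronal adhesion genes were the largest list and lay below the class as a whole in both series. They were also longer, with a median of 1024 kb against 734 kb. The 44 genes of 1 to 1.5 Mb had 0.176 and 0.254 peaks per 100 kb, so beside genes of like length this list was lower in series 1 only. Of 35 genes of synaptic and axonal adhesion, 24 were hit in series 1, 32 in series 2 and 22 in both, with 0.140 and 0.277 peaks per 100 kb, against 0.209 and 0.305 in all very long genes. Ptprd, Lsamp, Nrg3, a ligand of the receptor ErbB4 (4 and 6), and Tenm3 (6 and 3) led it. ErbB4 itself, encoded by Erbb4, had 0 and 2, and Adgrl3, a latrophilin, had none. Cadherins and protocadherins had 0.116 and 0.261 with 5 of 7 in both, among them Pcdh15 with 1 and 5, Cdh12 with 2 and 4, Cdh18 with 1 and 4 and Fat3 with 2 and 3. Axon guidance genes had 0.235 and 0.298 with 5 of 7 in both: Robo1 had 3 and 4, Epha6, an ephrin receptor, 3 and 1, and Sema6d, a semaphorin, 2 and 2.

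Ion channels and neurotransmitter receptors had 0.228 and 0.279 peaks per 100 kb, and 13 of 19 were hit in both series. Kcnma1, the pore of the large-conductance potassium channel, had 3 and 7, and the potassium channel partners Dpp6 and Dpp10 had 4 and 5 and 5 and 3. Synaptic scaffolds had 0.163 and 0.297 with 9 of 16 in both: Dlg2, a membrane-associated guanylate kinase, had 4 and 6, Anks1b 2 and 3, and Dlgap1 1 and 4. The dystrophin complex had 0.182 and 0.199 with 4 of 5 in both, in which the sarcoglycan genes Sgcz (3 and 4) and Sgcd (1 and 2) followed Dmd, and Sntg1, a syntrophin, had 2 and 0. Extracellular matrix and large receptor genes had 0.214 and 0.176, the lowest density of the lists in series 2, with 8 of 17 in both. Behind Lrp1b, the glypican genes Gpc6 and Gpc5 had 5 and 3 and 4 and 1, and Csmd2 had 1 and 5.

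Genes at common fragile sites, a list that overlaps several others, had 0.210 and 0.291 peaks per 100 kb, and 18 of 22 were hit in both. Lsamp, Fhit, Lrp1b and Dlg2 led it, and Wwox, an oxidoreductase at another fragile site, had 0 and 4. Genes of ubiquitin conjugation, DNA repair and organelle maintenance had 0.172 and 0.335 with 8 of 9 in both, among them Fhit, Macrod2, a mono-ADP-ribosylhydrolase (3 and 6), Naaladl2 (1 and 5) and Ccser1 (3 and 3). The 54 genes in no list had 0.219 and 0.310, with 33 hit in both. All list members were counted, and none was filtered. The lists were small and had 1 library per series, so the order of their densities was not tested.

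Along the gene, peaks leaned towards the end. For the 179 very long genes whose strand RefSeq gives, the stretch past the midpoint held 57.6% of 314 peak placements in series 1 (exact binomial 95% interval 52.0 to 63.2%) and 53.5% of 477 in series 2 (48.9 to 58.0%), and the interval of series 2 includes an even split. In genes of 250 to 500 kb the shares were similar, 54.2% (48.5 to 59.9%) and 54.4% (50.2 to 58.5%). In genes of 100 to 250 kb they were 61.2% (57.9 to 64.3%) and 60.5% (57.6 to 63.2%). The last 10% of the span held 14.97% and 12.8% in very long genes, against 15.2% and 14.5% in the genes of 100 to 250 kb. The first 10% held 10.8% and 9.22%, against 6.04% and 6.92%. In genes of 250 to 500 kb the last 10% held 15.4% and 12.5%, and the first 10.1% and 8.19%.

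**Figure D4:**
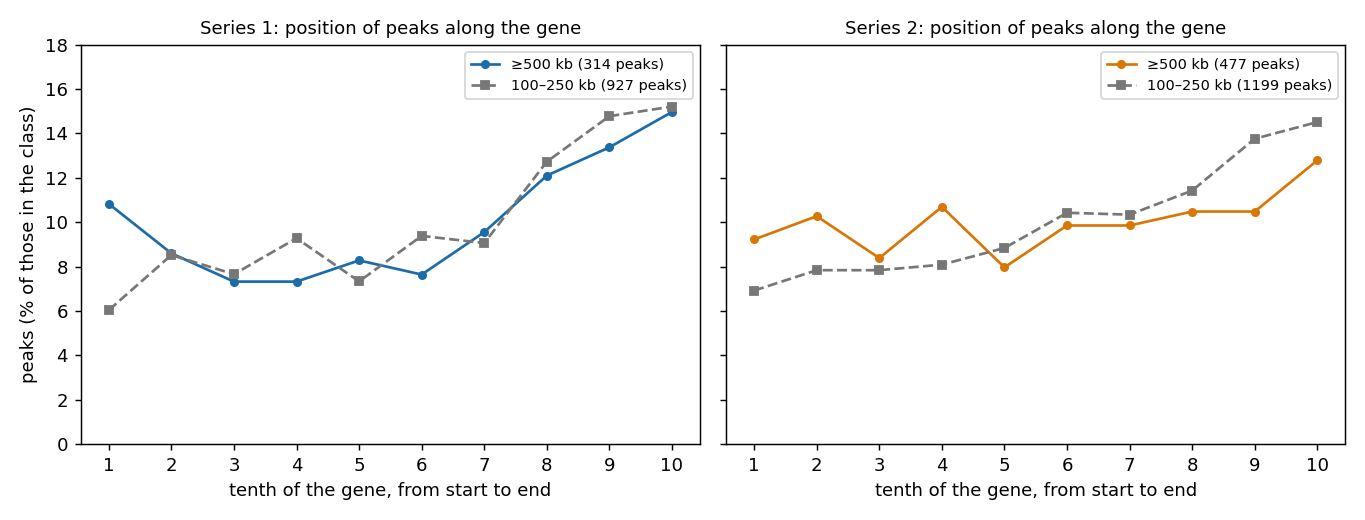
Percent of peaks (y axis) in each of 10 equal bins of the gene from its start to its end in the direction of transcription (x axis), series 1 on the left and series 2 on the right. Coloured lines are very long genes (314 and 477 peaks) and grey dashed lines genes of 100 to 250 kb (927 and 1199): in series 1 the very long genes go up to 14.97% in the last bin, and in series 2 to 12.8%.

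Single genes differed in this, and those given here were chosen after their positions were seen. In Kcnma1, with a span of 713 kb, all 3 series 1 peaks lay between 610 and 701 kb from the start, and 6 of 7 series 2 peaks between 498 and 699 kb. In Nav2, with 651 kb, all 4 series 1 peaks lay between 465 and 599 kb, as did 3 of 6 in series 2. Etl4 had the densest run: 5 of its 7 series 1 peaks lay within 44.0 kb (chromosome 2, 20764446 to 20808444), ending 2.09 kb before the end of the gene, while its 3 series 2 peaks were 218 to 229 bp wide. Dpp6 had 4 of 5 series 2 peaks within 46.0 kb, ending 21.9 kb before its end. Nfia had 4 of 5 series 1 peaks within 24.1 kb, before the midpoint of the gene and 301 kb before its end. Lpp had 4 of 5 series 1 peaks before its midpoint, and Atrnl1 4 of 6 series 2 peaks.

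Of the 227 very long genes, 7 in series 1 and 10 in series 2 held at least 3 peaks within 50 kb. Atrnl1 was among them in both, at different places. Only genes with at least 3 peaks could hold such a run. In series 1, 25 genes had 3 peaks and 32 had 4 or more, and in series 2, 44 and 58. Runs in shorter genes were not counted. Neighbouring peaks of 1 series in a gene lay a median of 151 kb apart in series 1 (interquartile range 58.2 to 310 kb, 227 gaps) and 155 kb in series 2 (66.3 to 278 kb, 387 gaps). Gaps of at most 10 kb numbered 15 and 20.

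**Figure D5:**
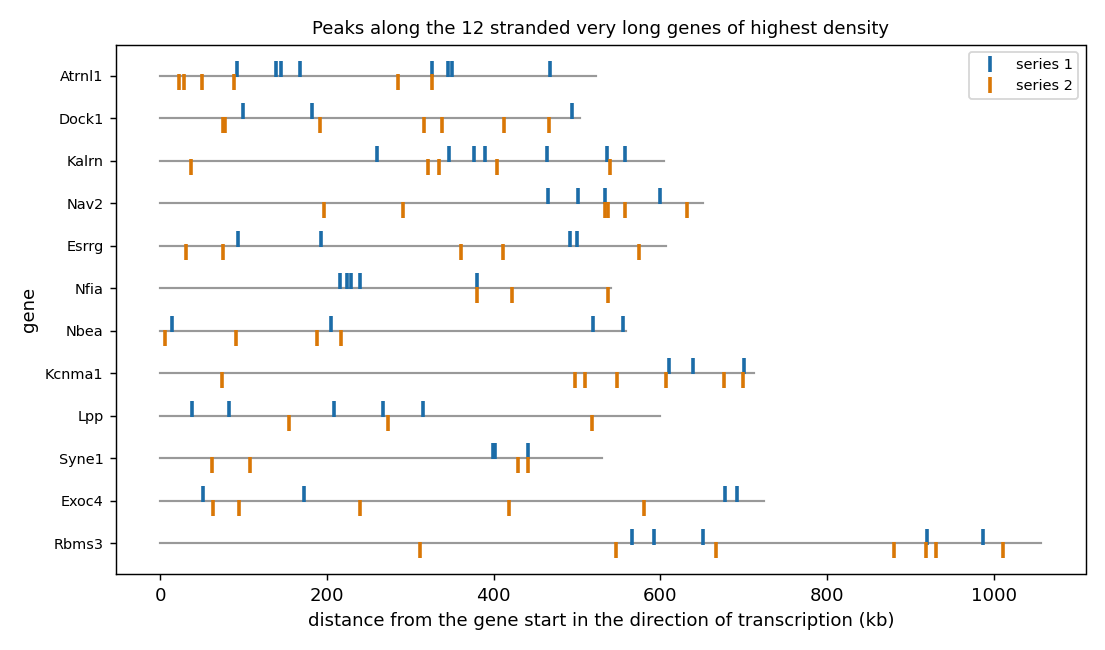
Peaks of series 1 (blue ticks, above the line) and series 2 (orange ticks, below) along the 12 very long genes of known strand with the highest mean density, by distance from the gene start in kb (x axis). Peaks of Kcnma1 lie mostly beyond 498 kb and those of Nav2 in series 1 beyond 465 kb, whereas those of Dock1 and Lpp are spread.

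The widest and highest peaks were in different genes. In series 1 the widest were in Etl4 (1806 bp, score 21), Agbl4, a tubulin deglutamylase gene (1767 bp, score 20), and Atrnl1 (1672 bp, score 22), followed by Zbtb20, a transcriptional repressor gene (1383 bp). In series 2 they were in Robo1 (1374 bp), Ptprd (1277 bp), Celf2 (1222 bp), Lrba, a relative of Nbea (1220 bp), and Lrp1b (1178 bp). Peaks over 1 kb were found in 38 very long genes in series 1 and 15 in series 2, and in 7 in both, named after their values were seen: Atrnl1, Zbtb20, Dock1, Kcnma1, Ptprd, Rad51b, which acts in recombinational repair, and Robo1. The share of all coding genes with such a peak was not counted. As a share of peaks, those over 1 kb were fewer than in shorter coding genes, 12.3% against 17.1% in series 1 and 2.75% against 5.71% in series 2.

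The highest scores of series 1 were in Dpp10 (138, in a peak of 1061 bp), Tmem132d (103), Dlg2 (98), Csmd2 (83) and Dcc, a netrin receptor gene (80). Those of series 2 were in Robo2 (126 and 96), Pde4d (124), Pde1c (103) and Dlg2 (96), all in peaks of 217 to 230 bp. A score of at least 50 in both series was found in Dlg2 (98 and 96) and in Tenm2 (63 and 85). These 2 are 0.881% of the very long genes, where the share over all coding genes was 0.0868%. It was 0 of 495 genes of 250 to 500 kb and 0.410% of those of 100 to 250 kb. These shares are not corrected for gene length, and that of the very long genes rests on 2 genes. In Dlg2 the highest peaks of the series lie apart, at 92318407 to 92318633 in series 1 and 92214437 to 92214661 in series 2 on chromosome 7.

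On chromosome X, 11 very long genes had 0.0955 peaks per 100 kb in series 1 (exact Poisson 95% interval 0.0458 to 0.176) and 0.248 in series 2 (0.162 to 0.364), against 0.216 and 0.308 in the 216 very long autosomal genes. In series 1 the intervals of the X and autosomal genes (0.195 to 0.239) did not overlap, and in series 2 (0.283 to 0.335) they did. Shorter coding genes of chromosome X showed the same order, with 0.162 and 0.429, against 0.583 and 0.704 on autosomes. Both series had a peak in 5 of the 11 X genes, among them Dmd and Tenm1.

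The annotation touched few of these peaks. Of the 399 and 581 peaks, 4 (1.00%) and 9 (1.55%) also touched a shorter coding gene, such as Lrrtm3 inside Ctnna3 (2 peaks of series 2), and strand cannot separate such genes. The predicted genes Gm37013, Gm38666 and Gm38667 on chromosome 18 overlap by at least 868 kb and span the protocadherin alpha genes, so that their 2 peaks in each series count for all of them. The 7 genes without a peak in either series were Adgrl3 (809 kb), Iqschfp, Schip1, Dach2, Unc13c, St6galnac3 and Stpg2, and Schip1 lies within Iqschfp.

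Genes on either side of the length limit were alike in range. Just above it, Edil3 had 0 and 1 peaks, Dock1 3 and 7, Samd12 0 and 2, Stpg2 none and Car10 1 and 0. Just below it, Dnm3 (496 kb) had 2 and 2, Lrrc7 2 and 1, Cacna1e 0 and 2, Ank3 6 and 6, and Abca13 0 and 1. Ank3, which encodes the membrane adaptor ankyrin-G, reached 1.21 peaks per 100 kb in each series, a density that among very long genes Atrnl1 exceeded in series 1 and Dock1 in series 2.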

How the data were processed

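Per the submitters' processing notes, Bowtie2, SAMtools and MACS2 were used on build mm10; no version or setting is given in the sources used here. The authors deposited 1 list of broad peaks per ChIP library, with position, name and a score (whole numbers of at least 10) whose meaning is not stated; per the peak names, series 1 was called against 2 inputs together and series 2 against 1. Scores were used only within a list. Depth is unknown. Spans came from a RefSeq table (GRCm38.p6) and strand from its promoter table. A peak belonged to every gene it touched by at least 1 bp. Density is peaks per 100 kb of merged spans; outside coding genes it runs from the first to the last coding gene or peak of a chromosome, with no correction for gaps or mappability. No test was run, as each series has 1 library, and the labels do not tie libraries to mice. The counting was tested on simulated data. Genes were named from the 12 with most peaks, the 10 of highest mean density, up to 4 with most peaks per list, the 5 longest, up to 8 without a peak, 5 on each side of the limit, hosts of the 5 highest and 5 widest peaks per series, and those with overlapping peaks; others were chosen after their values were seen. The members and lists were chosen with earlier results of these data known. Alternatives were other length limits, minimum scores and widths, the peak midpoint, single-gene peaks and autosomes. Counts and exact intervals came from scipy 1.17.1, with pandas 2.3.3 and numpy 2.4.6 under Python 3.11.15. Some genes covered by the rule for named genes are not reported here.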

Additional observations from a re-analysis of the deposited data

How the results depend on the processing

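The lower density of very long than of shorter coding genes held under every alternative run. The ratio, 0.406 as reported, lay between 0.383 and 0.408 with limits of 400 or 750 kb, peaks of a score of at least 20, midpoints, peaks touching no second coding gene, or autosomes; it was 0.478 with scores of at least 50 (25 and 20 peaks in very long genes) and 0.281 with peaks wider than 250 bp (365 and 80), where series 2 gave 0.195 and series 1 0.367. Leaving out one series gave ratios of 0.371 to 0.441, densities of 0.209 to 0.305 per 100 kb, median widths of 221 to 461 bp, median scores of 16 to 19 and shares past the midpoint of 53.5 to 57.6%. Filters on peaks by construction lowered the density of very long genes, 0.257 per 100 kb, to 0.109 with scores of at least 20, 0.0118 with at least 50 and 0.117 with widths over 250 bp, moved the mean of the median scores, 17.5, to 25.5 and 67.75, and that of the median widths, 341 bp, to 562.75 bp. The 154 genes hit in both series became 77 with scores of at least 20, 2 with at least 50, 49 with widths over 250 bp and 84 with a limit of 750 kb (76.4% of the genes left), all among the 154. With scores of at least 20 this was 33.9% of very long genes, against 3.30% of all coding genes. With at least 50 it was 0.881% against 0.0868%. In genes of 250 to 500 kb the shares were 15.8% and 0%, and none of these shares is corrected for gene length. The mean share of peaks past the midpoint, 55.6%, with alternatives added after seeing the data, was 59.1% with scores of at least 20, 63.6% with at least 50 (77.3% and 50% in series 1 and 2) and 59.7% with widths over 250 bp; the cause was not tested. No paired analysis was possible because no test was run between groups. With unknown depth, a gene without a peak cannot be told from one below detection.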
